A study of Homo sapiens with 17 samples.

Results

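Interferon-stimulated genes were examined in NKYS, an established human cell line derived from an NK/T-cell lymphoma and kept in interleukin-2 at 100 IU/mL. Of 48 genes named as interferon-stimulated, 47 were measured by a probe set annotated to that gene alone, among 18377 genes measured in this way. Where a gene had several such probe sets, the one with the highest mean over all arrays was taken. GBP1 was not measured, since its probe set is shared with GBP3 and a GBP1 pseudogene. The values are the authors' deposited signal intensities, on a linear scale in arbitrary units, and differences are given on the log2 scale.

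Each of the 17 arrays carried RNA of cells electroporated with an siRNA or a plasmid. The siRNA arrays were 2 with JAK3 siRNA, 2 with the control siRNA of that arm, 2 with EZH2 siRNA and 2 with the control siRNA of that arm. The EZH2 arm is paired, since its control arrays are titled for the EZH2 siRNA array each belongs to. The plasmid arrays were 2 with empty vector, 2 each titled wild-type EZH2, EZH2 Y244D and EZH2 Y244A, and 1 with EZH2 lacking the SET domain, the catalytic domain of this histone methyltransferase. The titles number the vector, Y244D and Y244A arrays 1 and 2, and these numbers are called set 1 and set 2 here. The set 2 wild-type array carries no number in its title and was placed by its transfection field, and the SET deletion array belongs to neither set. For the 3 full-length arrays of set 2 the labels contradict each other on the construct, so the 6 full-length arrays were compared with vector as 1 group. The labels do not give the time after electroporation, the dose of nucleic acid or whether replicate arrays are separate cultures. The p-values therefore reflect array-to-array spread, part or all of which may be technical.

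Interferon-stimulated genes are the transcripts that rise when interferons bind their receptors. Type I and type III receptors signal through the kinases JAK1 and TYK2 to a complex that holds IRF9 and binds the interferon-stimulated response element (ISRE), while interferon gamma signals through JAK1 and JAK2 to GAS elements. JAK3, the kinase targeted here, serves the receptors of the common gamma chain cytokines such as interleukin-2. The products block viral RNA and entry, sense foreign nucleic acid and feed back on the pathway, and some of them, such as IRF9 and ADAR, are also made without interferon.

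Promoters of 36 of the 48 genes were found in the RefSeq table of GRCh38.p14, each covering 250 bases before and 50 after the start of transcription. The ISRE core, which reads GAAA, any 2 bases (NN) and GAAA again, was searched on both strands. It was present in 24 of the 36 genes (66.7%), against 4.38% of 27305 genes with a promoter of the same length. The GAS motif TTCNNNGAA, also read on both strands, was present in 11 of them (30.6%), against 9.38%. The motifs can overlap, and a match describes the letters only. The 5 promoters below were chosen among those that hold the core. They are the promoter of IFITM1, which fell on vector arrays, and those of PARP14, EIF2AK2, IFI44 and PARP9, the genes with a core that differed most between the plasmid sets. Of the other genes called between the sets, IFI6, PARP12 and IFI27 held a core too. No core was found in the listed promoters of ADAR, SP100, SP110, SAMD9L and IRF9, which were also higher in set 2. A second listed promoter of PARP9 held none either, and no promoter was found for GBP2 or IRF7, both called. Genes not called between the sets held a core as well, among them ISG15, IFIH1, HERC5, SAMD9, IFIT3 and OAS3. Others not called, among them CMPK2, IRF1, OAS1 and XAF1, held none. Whether the core goes with the calls was not tested. The 5 printed promoters lie at chr11:313790-314089 on the plus strand (IFITM1), chr3:122680589-122680888 on the plus strand (PARP14), chr2:37156931-37157230 on the minus strand (EIF2AK2), chr1:78649539-78649838 on the plus strand (IFI44) and chr3:122564251-122564550 on the minus strand (PARP9). Each is written 5′ to 3′ on the strand of its gene, with capitals marking the ISRE core. In IFITM1 the cores begin 40 and 6 bases before the start, in PARP14 29 bases and in EIF2AK2 6 bases before it. In IFI44, 18 bases before the start, and in PARP9, 41 bases before it, the core lies on the opposite strand and reads TTTCAGTTTC in both.
IFITM1: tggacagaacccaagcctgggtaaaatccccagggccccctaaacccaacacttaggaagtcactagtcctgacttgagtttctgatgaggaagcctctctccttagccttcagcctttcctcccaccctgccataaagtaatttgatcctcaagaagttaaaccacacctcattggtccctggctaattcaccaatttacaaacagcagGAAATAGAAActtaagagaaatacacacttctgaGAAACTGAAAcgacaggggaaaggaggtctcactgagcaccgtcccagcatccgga
PARP14: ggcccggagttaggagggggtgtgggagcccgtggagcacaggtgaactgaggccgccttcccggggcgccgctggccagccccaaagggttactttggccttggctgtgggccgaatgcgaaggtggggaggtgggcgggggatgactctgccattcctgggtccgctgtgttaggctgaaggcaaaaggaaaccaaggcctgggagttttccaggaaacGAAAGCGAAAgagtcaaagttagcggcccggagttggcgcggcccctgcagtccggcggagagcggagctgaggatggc
EIF2AK2: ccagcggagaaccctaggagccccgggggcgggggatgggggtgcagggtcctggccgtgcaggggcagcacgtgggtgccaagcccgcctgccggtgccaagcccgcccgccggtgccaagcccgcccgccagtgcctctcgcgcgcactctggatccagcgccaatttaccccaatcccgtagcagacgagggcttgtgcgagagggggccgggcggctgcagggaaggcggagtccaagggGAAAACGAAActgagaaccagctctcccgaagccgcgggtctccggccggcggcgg
IFI44: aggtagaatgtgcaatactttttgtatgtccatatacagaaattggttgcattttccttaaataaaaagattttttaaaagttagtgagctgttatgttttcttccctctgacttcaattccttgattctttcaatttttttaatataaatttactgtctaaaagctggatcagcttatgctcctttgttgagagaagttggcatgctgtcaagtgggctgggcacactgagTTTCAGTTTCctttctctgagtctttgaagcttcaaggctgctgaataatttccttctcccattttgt
PARP9: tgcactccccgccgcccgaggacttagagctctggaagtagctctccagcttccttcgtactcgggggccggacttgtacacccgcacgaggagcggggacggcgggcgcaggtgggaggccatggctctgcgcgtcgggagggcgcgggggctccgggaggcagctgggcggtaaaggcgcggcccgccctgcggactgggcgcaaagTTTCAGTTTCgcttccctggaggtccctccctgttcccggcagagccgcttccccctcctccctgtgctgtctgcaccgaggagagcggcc

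Across the 17 arrays the lower quartile of signal over all probe sets was 32.4 to 38.6 and the median 60.3 to 72.98. The interquartile range of log2 signal was 2.27 to 2.33 on the siRNA arrays, 1.79 to 2.03 on set 1, 1.99 to 2.18 on set 2 and 1.86 on the SET deletion array, so signals on plasmid arrays lay closer together. The siRNAs lowered their targets: JAK3 was 137 ± 0.961 with JAK3 siRNA and 324 ± 2.73 with control (SD, n = 2 each), and EZH2 was 495 ± 8.60 with EZH2 siRNA and 809 ± 166 with control, with adjusted p = 5.70e-06 and 0.0275 in limma's test. All 11 NK markers were measured and none lay below the lower quartile on every array. Their summed signal was 7716 to 12021 on siRNA arrays and 4185 to 6893 on plasmid arrays, a sum carried by PRF1, GZMB and NKG7. TYROBP went the other way, with overlap (61.9 to 79.4 on siRNA and 74.4 to 119 on plasmid arrays). The ranges of PRF1, GZMB, KLRD1, FCER1G, CD244 and NCR1 overlapped as well. Of the other lists, 6 of 6 T cell, 4 of 5 B cell, 4 of 5 monocyte and 7 of 7 epithelial and fibroblast markers were measured, and the monocyte marker LYZ was below the lower quartile on all arrays. Their summed signals on siRNA and plasmid arrays were 507 to 614 and 449 to 623 for T cells, 218 to 239 and 231 to 304 for B cells, 275 to 375 and 278 to 315 for monocytes, and 487 to 543 and 562 to 1025 for epithelial cells and fibroblasts. Fewer cells of a type and less RNA per cell cannot be told apart in such bulk samples. Bright genes as a whole were also lower on vector than on control siRNA arrays. Over all genes in the brightest of 3 equal groups by signal, the median log2 difference was -0.58. The part of this shift in the summed signals was not tested.

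Most of the interferon-stimulated genes lay above the lower quartile of signal in cells that received only control siRNA. This quartile is not a detection limit. Of the 47 genes, 42 were above the lower quartile of every array, as were 14345 of all 18377 genes. Another 2 (IFIT2 and IFIT5) fell below it on some arrays, and 3 lay below it on all 17 (6.38%, against 12.05% of all genes). The 5 probe sets with the highest mean over the 4 control siRNA arrays were those of IFITM1, a membrane protein that blocks viral entry, at 1493 ± 177, PARP12 at 1016 ± 37.7, the RNA-activated kinase EIF2AK2 (PKR) at 712 ± 39.2, the RNA editing enzyme ADAR at 636 ± 27.6 and the guanylate-binding GTPase GBP2 at 586 ± 126 (SD, n = 4). The 5 lowest were IFIT1 at 23.9 ± 0.607, IFI44L at 24.6 ± 0.656, the ubiquitin ligase homologue HERC6 at 27.2 ± 0.310, IFIT2 at 29.8 ± 1.94 and MX2, a dynamin-like GTPase, at 34.8 ± 0.716. Signals of different probe sets are not comparable as transcript amounts, so this is an order of signals. IFIT1 and IFIT2 belong to the family that binds viral RNA caps, and IFIT1 spanned 22.5 to 26.4 over all 17 arrays. The classical antiviral genes MX1, OAS2, OAS3 and RSAD2 gave 33.9 to 51.6, 36.4 to 52.9, 36.5 to 49.0 and 34.7 to 48.4 over the 17 arrays, close to the lower quartile. The ubiquitin-like modifier ISG15 gave 111 to 178. IFITM1 has near-identical family members, so its signal may include theirs. The heat map of all measured genes shows these signals on every array.

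**Figure D1:**
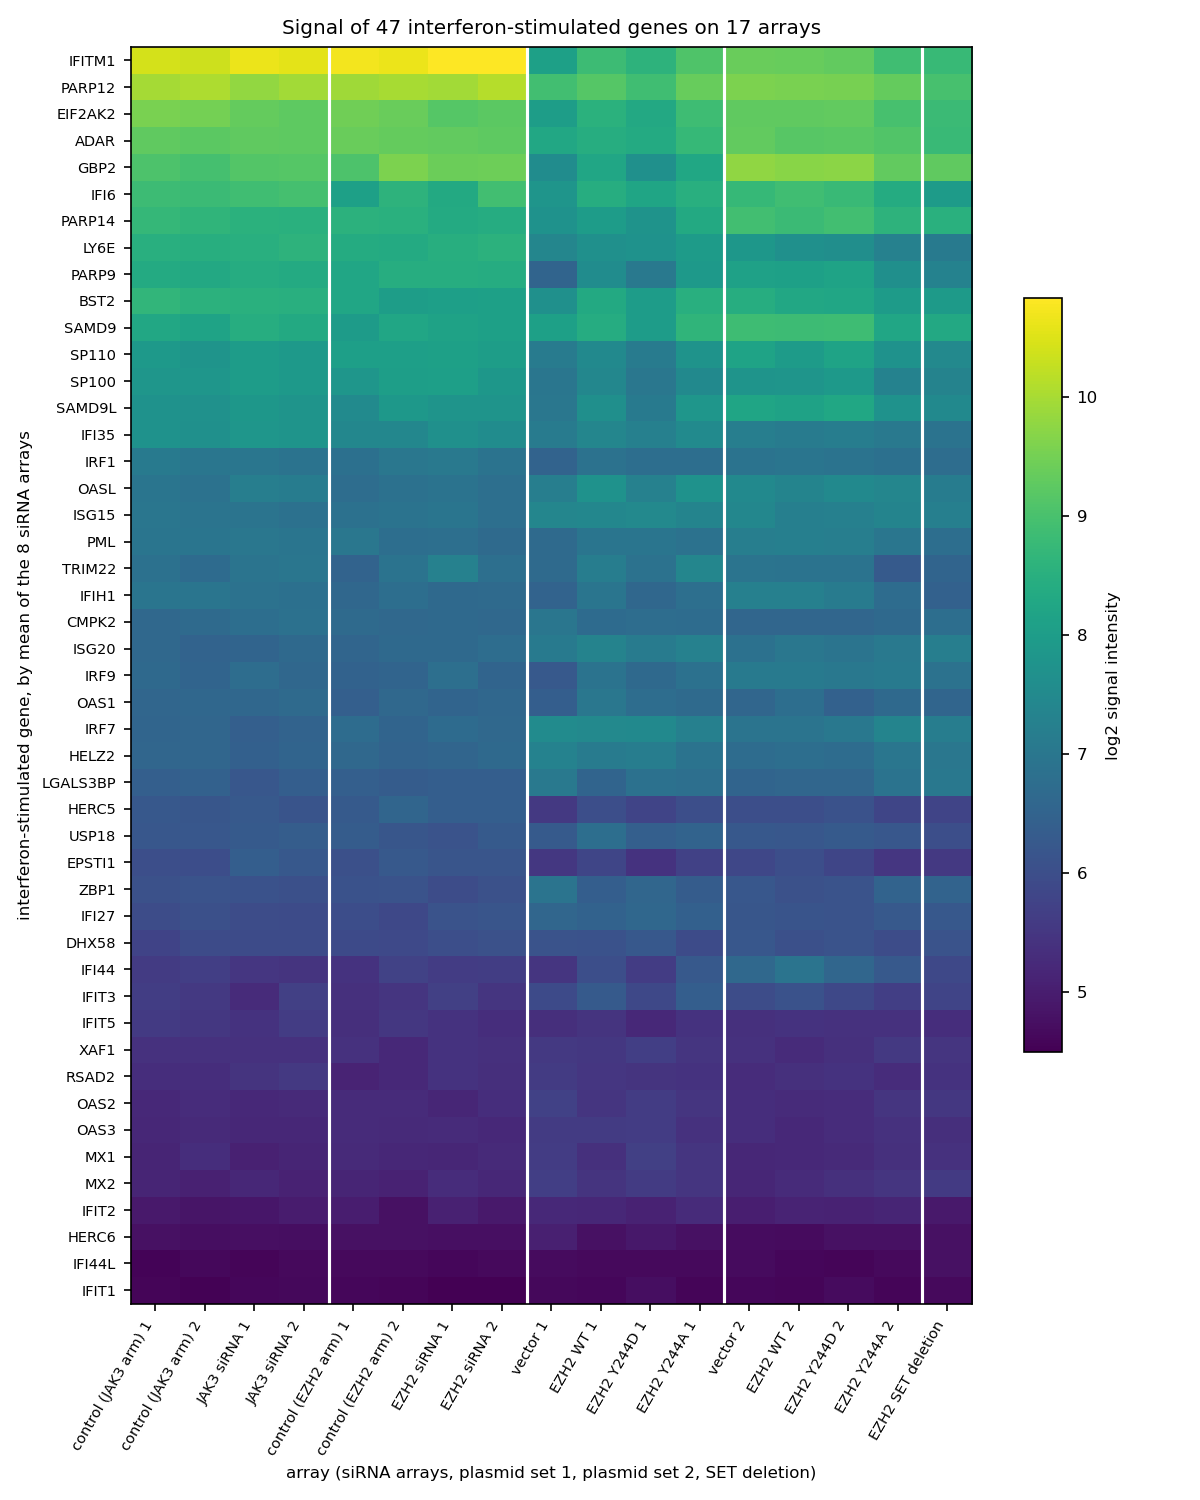
Heat map of log2 signal intensity of the 47 measured interferon-stimulated genes (rows, by mean of the 8 siRNA arrays) on the 17 arrays (columns: siRNA arrays, plasmid set 1, plasmid set 2 and SET deletion, parted by white lines). IFITM1 is the brightest row on siRNA arrays (1307 to 1823) and darker on every plasmid array (275 to 669), while IFIT1, IFI44L and HERC6 are dark throughout.

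The genes upstream of the response were read from a separate list. Of 47 interferon pathway genes listed outside the members (ligands, receptors, kinases, sensors and inhibitors), 43 were measured. The type I interferons IFNB1 and IFNA2 lay below the lower quartile on all 17 arrays, as did IFNE, IFNK and IFNW1. The type III interferons IFNL1, IFNL2 and IFNL3 lay above it on every array. They gave 57.7 to 118, 56.3 to 115 and 170 to 344. Interferon gamma (IFNG) was measured at 222 and 218 on the control arrays of the JAK3 arm but at 63.1 and 73.4 on those of the EZH2 arm. With JAK3 siRNA it was 153 and 149, and with EZH2 siRNA 141 and 72.8. The receptor chains IFNAR1, IFNAR2, IFNGR1 and IFNGR2 were above the lower quartile on every array.

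The JAK3 siRNA comparison asks what loss of this kinase does to the cells, and no interferon-stimulated gene passed the test. Of 41 genes tested, 0 were called (limma, Benjamini-Hochberg adjusted p under 0.05), while 1.38% of all genes tested were, 0.622% as higher and 0.76% as lower. At an unadjusted p under 0.05 there were 5 genes (12.2%), against 12.4% of all genes. Changes ran from -0.24 to 0.31, with SEs of 0.07 to 0.15, 22 of 41 were above 0, and the median was 0.03 against -0.01 for all genes. IFI44L, IFIT1, IFIT2, MX1, MX2 and HERC6 were too dim to be tested.

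EPSTI1, an interferon-induced gene named for its induction in epithelial cells by stroma, gave the smallest p-value. It gave 83.7 and 75.8 with JAK3 siRNA and 64.5 and 63.6 with control, so the groups did not overlap. The difference was 0.31 ± 0.08 (SE) with adjusted p = 0.102 in limma's test. The OAS-like protein OASL gave 147 and 144 against 124 and 118, a difference of 0.26 ± 0.08 with adjusted p = 0.143. In this gene too both siRNA arrays lay above both controls. EIF2AK2 gave 643 and 617 against 757 and 728, both lower than control, a difference of -0.24 ± 0.07 with adjusted p = 0.165. IFITM1 gave 1594 and 1510 against 1385 and 1307, a difference of 0.21 ± 0.07 with adjusted p = 0.246. The mitochondrial nucleotide kinase CMPK2 gave 110 and 117 against 99.4 and 103, a difference of 0.16 ± 0.07 with adjusted p = 0.374. Groups did not overlap in 14 genes that were higher and 11 that were lower, shares read against 21.2% and 27.1% of all genes. EPSTI1 and OASL passed when only the 4 arrays of the arm were fitted (adjusted p = 0.0336 and 0.0481 in limma's test). They also passed in each fit without 1 array of the EZH2 arm. With the EZH2 pairs as a block, such a fit takes its spread from the same 4 arrays of the JAK3 arm alone. It is therefore no separate support. All these fits called 3.57% to 3.61% of all genes.

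By role, the largest JAK3 siRNA median among groups of at least 3 genes was 0.16, for RSAD2, CMPK2 and ISG20, and the lowest was -0.13, for PARP9, PARP12 and PARP14. Among the other pathway genes 2 of 37 were called and both fell, while 0.76% of all genes were called as lower. The endosomal RNA sensor TLR7 gave 57.3 and 58.4 with JAK3 siRNA against 91.5 and 109, a change of -0.79 (adjusted p = 0.000846, limma). The JAK inhibitor SOCS1 gave 156 and 155 against 220 and 219, a change of -0.50 (adjusted p = 0.0038).

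The EZH2 siRNA comparison asks the same of the methyltransferase, and again 0 of 41 interferon-stimulated genes were called, against 0.94% of all genes, 0.373% as higher and 0.567% as lower. At an unadjusted p under 0.05 there were 6 genes (14.6%), against 15.6% of all genes. Changes ran from -0.22 to 0.34, 27 of 41 were above 0, and the median was 0.03 against -0.00 for all genes. Groups did not overlap in 7 genes that were higher and 4 that were lower, against 16.6% and 20.8% of all genes.

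IFI6, a small membrane protein of interferon-treated cells, gave 325 and 480 with EZH2 siRNA and 275 and 385 on the paired controls. The groups overlapped, but both pairs moved up, by 0.24 and 0.32. The fitted difference was 0.28 ± 0.07 with adjusted p = 0.0838 (limma, pairs as a block). EIF2AK2 was lower in both pairs, by -0.28 and -0.15, with values of 573 and 600 against 697 and 666 and adjusted p = 0.166 in limma's test. IFI27 gave 69.1 and 71.3 against 63.3 and 58.5, a difference of 0.21 with adjusted p = 0.191. IFI35 gave 205 and 192 against 172 and 173, a difference of 0.20 with adjusted p = 0.192. The radical SAM enzyme RSAD2 (viperin) gave 42.8 and 40.5 against 34.7 and 37.5, a difference of 0.21 with adjusted p = 0.208. The pairs of the ubiquitin ligase TRIM22 went apart, with 156 against 90.9 in pair 1 and 111 against 119 in pair 2, differences of 0.78 and -0.10. Without EZH2 siRNA array 2, or without its control, TRIM22 (0.78) and GBP2 (0.34) were called, with adjusted p = 0.0018 and 0.044 in limma's test. That fit sets 1 EZH2 siRNA array against 1 control and takes the spread from the JAK3 arm alone, assuming that the EZH2 arm varies alike. It called 10.4% of all genes, against these 2 of 41. In the main fit 0 of the 37 other pathway genes tested were called, against 0.94% of all genes.

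**Figure D2:**
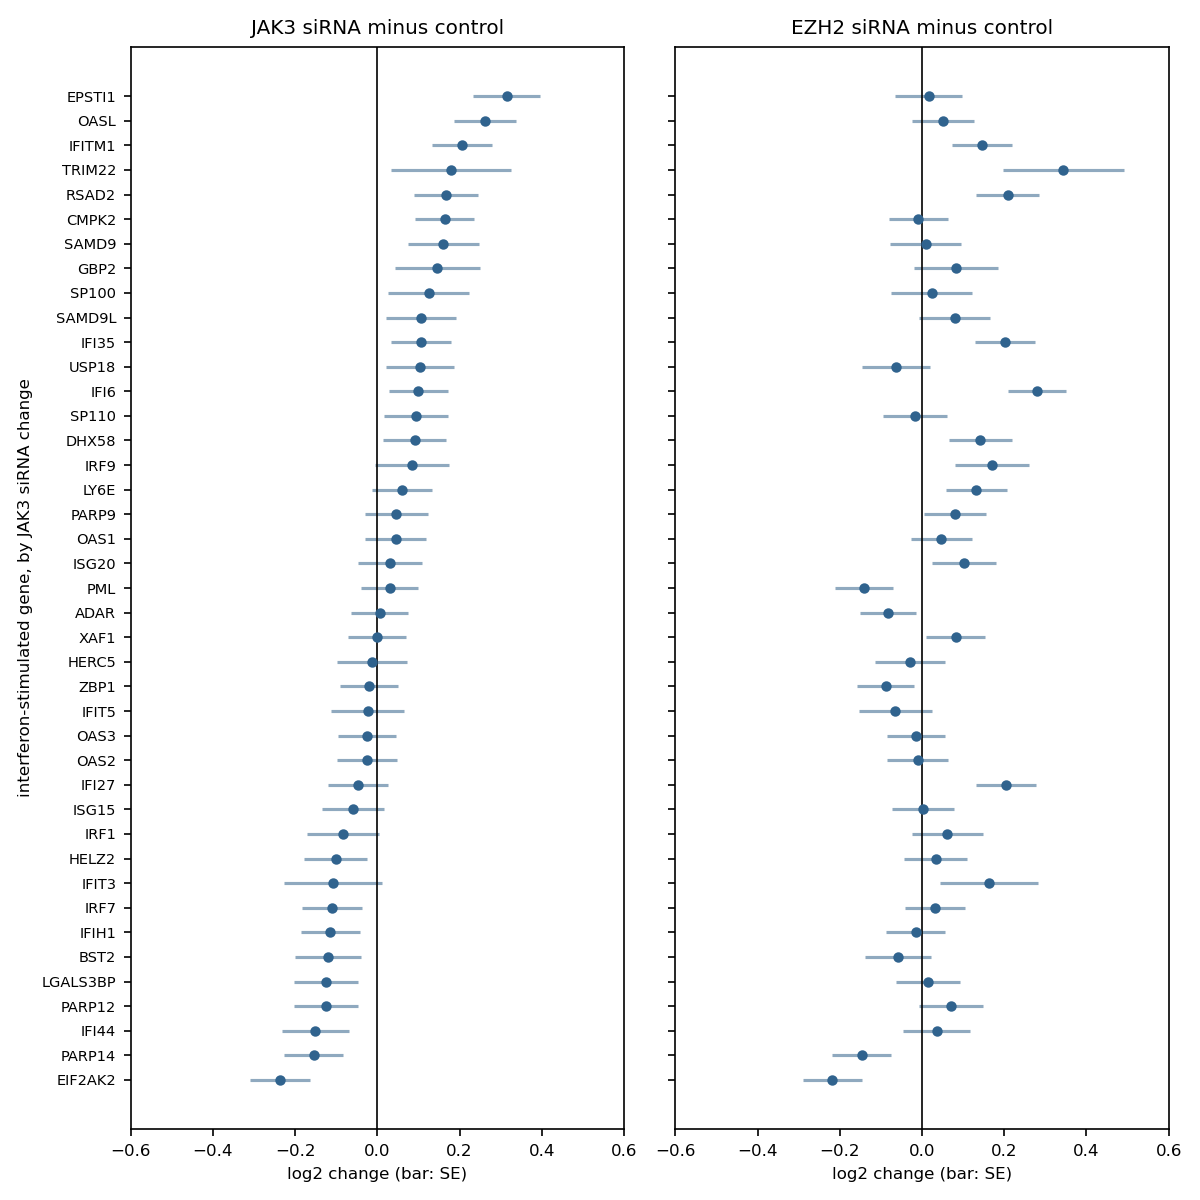
Log2 change (points) with its SE (bars) of the 41 tested interferon-stimulated genes under JAK3 siRNA (left) and EZH2 siRNA (right), each against its own control siRNA, ordered by the JAK3 change. All points lie between -0.24 and 0.34, and none passed the adjusted test.

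The difference between the siRNA effects was tested directly, and 0 of 41 interferon-stimulated genes were called, against 0.366% of all genes, 0.138% as higher and 0.228% as lower. At an unadjusted p under 0.05 there were 2 genes (4.88%, against 8.14% of all genes), EPSTI1 with 0.30 ± 0.12 (SE) and IFI27 with -0.25 ± 0.10, with adjusted p = 0.482 and 0.527 in limma's test. The next smallest p-values belonged to OASL (0.21), PARP12 (-0.19) and IFI6 (-0.18). Without EZH2 siRNA array 2, or without its control, TRIM22 was called, at -0.60 with adjusted p = 0.035, again from 1 EZH2 pair with the spread of the JAK3 arm, in a fit that called 2.23% of all genes. Among the other pathway genes 0 of 37 were called.

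The control siRNA arrays of the arms were also set against each other, and 0 of 42 interferon-stimulated genes were called (0% of all genes). At an unadjusted p under 0.05 limma passed 0 of them and 118 of all genes (0.816%). The antiviral membrane tether BST2 gave 408 and 380 in the JAK3 arm controls and 305 and 259 in those of the EZH2 arm, a difference of -0.49 with adjusted p = 1.0. IFI6 gave 458 and 452 against 275 and 385, a difference of -0.48. The other genes with the smallest p-values were IFI35 (-0.27), the RNA sensor IFIH1 (-0.27) and IFIT3 (-0.17). Groups did not overlap in 6 genes that were higher and 15 that were lower in the EZH2 arm, against 17.8% and 24.9% of all genes. BST2 passed when only the 4 control arrays were fitted, with 1.48% of all genes called. It also passed without either vector array. The spread then comes from the same 4 control arrays alone, so these fits are no separate support.

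Raising EZH2 with full-length plasmids called no interferon-stimulated gene. The plasmid arrays gave an EZH2 signal of 1159 ± 538 (SD, n = 6) against 304 ± 64.1 with vector (n = 2), 3.60-fold on the log2 means. Of 43 genes tested, 0 were called (0% of 14410 genes), 0 passed at an unadjusted p under 0.05, and 10 of all genes did (0.0694%). EZH2 itself had adjusted p = 1.0 in the limma fit. That fit holds no set term, so differences between the sets add to its spread. Since it left even EZH2 uncalled, the lack of a call is weak evidence that a gene did not change. With the set number as a block 0 of 14410 genes were called as well. The median of the genes was 0.06 against 0.01 for all genes, with 32 of 43 above 0, and no gene had groups that did not overlap (0.278% of all genes higher and 0.486% lower).

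OAS1, an enzyme that makes the activator of RNase L, gave 84.2 and 95.3 with vector and a lowest, median and highest value over the 6 full-length arrays of 88.1, 105 and 129. The difference was 0.24 with adjusted p = 1.0 in limma's test, as for the next 4. IRF9 differed by 0.26, the nucleic acid sensor ZBP1 by -0.23, the ISG15 ligase HERC5 by 0.17 and PARP9, which partners a ubiquitin ligase in the interferon response, by 0.42. PARP9 gave 93.0 and 277 with vector and 133 to 290 with full-length EZH2, so the vector arrays spanned most of the range. Without vector array 1 the signs of IRF9 (-0.14), ZBP1 (0.12), HERC5 (-0.052) and PARP9 (-0.37) turned.

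Within the sets the differences from vector went apart. In set 1, 31 of 43 genes were above vector with a median of 0.26, and 55.0% of all genes were above it. In set 2, 12 of 43 were above vector with a median of -0.06, against 41.1% of all genes. PARP9 was 0.98 above vector in set 1 and 0.14 below it in set 2 (-0.14). The corresponding values were 0.74 and -0.20 for IFITM1, 0.61 and -0.28 for BST2, 0.59 and -0.06 for IFI6 and 0.39 and -0.34 for the membrane-anchored protein LY6E. In the test of set 1 minus set 2, a fit chosen after seeing the data, 0 genes were called (0% of all genes, smallest adjusted p = 0.400). At an unadjusted p under 0.05 it passed 5 of 43, PARP9 (1.12), IFITM1 (0.94), BST2 (0.89), LY6E (0.73) and IRF9 (0.55). Of all 14410 genes tested it passed 1762. Each set holds 1 vector array, and the vector array of set 1 had the narrowest interquartile range of all arrays (1.79), whose part in the result was not tested.

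**Figure D3:**
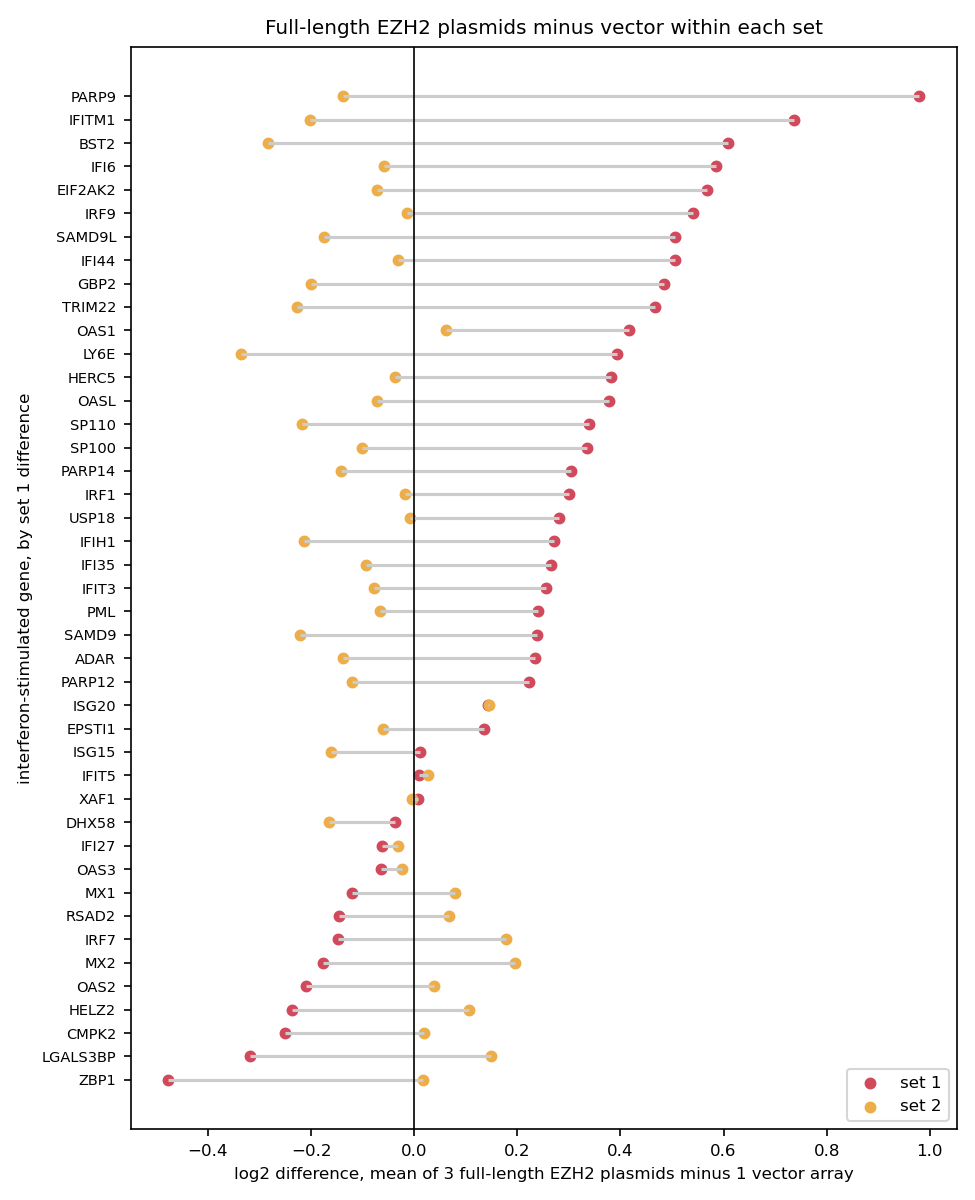
Log2 difference of the mean of 3 full-length EZH2 plasmid arrays from the 1 vector array of the same set, for the 43 tested interferon-stimulated genes, in set 1 (red) and set 2 (orange). In set 1, 31 genes lie above 0 and in set 2, 12, with PARP9, IFITM1 and BST2 among the widest gaps.

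The plasmid sets differed from each other. Of 43 interferon-stimulated genes, 15 were called between set 2 and set 1 (34.9%), against 34.5% of all genes tested, so the share is that of the array as a whole. Of these, 13 were higher in set 2 (30.2%, background 21.8%) and 2 were lower (4.65%, background 12.7%). After quantile normalization 8 were higher and 5 lower, with 17% and 13.5% of all genes. At an unadjusted p under 0.05 there were 24 genes (55.8%), against 51.5% of all genes. Groups did not overlap in 6 genes that were higher and 5 that were lower, against 16.3% and 14.9%. The median over the 43 genes was -0.02, the same as over all genes.

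GBP2 gave 192, 204, 311 and 306 in set 1 (vector, Y244D, Y244A and wild type by title) and 879, 851, 633 and 831 in set 2. The sets did not overlap, and the difference was 1.68 ± 0.18 (SE), a 3.21-fold rise, with adjusted p = 0.000477 in limma's test. ADAR gave 314, 333, 431 and 349 in set 1 and 634, 597, 550 and 584 in set 2, a difference of 0.74 with adjusted p = 0.0029. The ADP-ribosyltransferase PARP14 gave 213, 216, 327 and 257 against 483, 479, 387 and 454, a difference of 0.85 with adjusted p = 0.0041. EIF2AK2 gave 258, 319, 469 and 375 against 619, 637, 510 and 629, a difference of 0.78 with adjusted p = 0.0075. In these genes every set 2 array exceeded every set 1 array, and the array titled Y244A was the highest of set 1 and the lowest of set 2. That array also had the widest interquartile range of set 1 (2.03) and the narrowest of set 2 (1.99), whose part was not tested. In set 2 its labels contradict each other on the construct. These 4 genes were called in each fit that left out 1 array.

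The other 9 genes that rose were IFI44 (0.76), PARP9 (0.74), the growth suppressor SAMD9L (0.70), the nuclear body proteins SP110 (0.64) and SP100 (0.48), IFITM1 (0.58), IFI6 (0.47), PARP12 (0.43) and IRF9 (0.40). Of them the sets overlapped in all but IRF9. The genes that fell were IRF7, the factor that amplifies type I interferon, at -0.38 with 188, 181, 153 and 178 in set 1 and 122, 131, 165 and 122 in set 2, and IFI27 at -0.35, with 95.3, 97.8, 86.2 and 90.0 against 73.5, 69.7, 76.2 and 70.2. By role, all 3 PARP genes and 2 of 3 nuclear body genes rose, as did 2 of 5 RNA and DNA sensors and editors, while 0 of 4 OAS, 0 of 2 MX and 0 of 3 ISG15 system genes were called. When the genes tested were cut into 3 equal groups by signal, 11 of 16 interferon-stimulated genes of the brightest group rose, against 1896 of 4803 of all genes, with medians of 0.53 and 0.34. The interquartile range was lower in set 1 (1.79 to 2.03) than in set 2 (1.99 to 2.18), and its part in the result was not tested. The count moved with the share of all genes called when 1 array was left out. It was 4 without vector 1, Y244D 1, vector 2 or wild-type 2 (11.7%, 13.7%, 11.7% and 12.2% of all genes), 5 without Y244D 2 (12.9%) and 9 without wild-type 1 (21.4%). It was 19 without Y244A 1 (51.1%) and 24 without Y244A 2 (57.9%).

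Of the other pathway genes, 15 of 36 rose and 4 fell between the sets, against 21.8% and 12.7% of all genes. The cytosolic DNA sensors AIM2 (1.45) and CGAS (1.03), the SUMO ligase PIAS1 (0.98), the kinase TBK1 (0.79) and the receptor chain IFNAR2 (0.71) rose most. SOCS1 fell by 0.66, with 271, 236, 215 and 277 in set 1 and 150, 156, 175 and 148 in set 2.

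**Figure D4:**
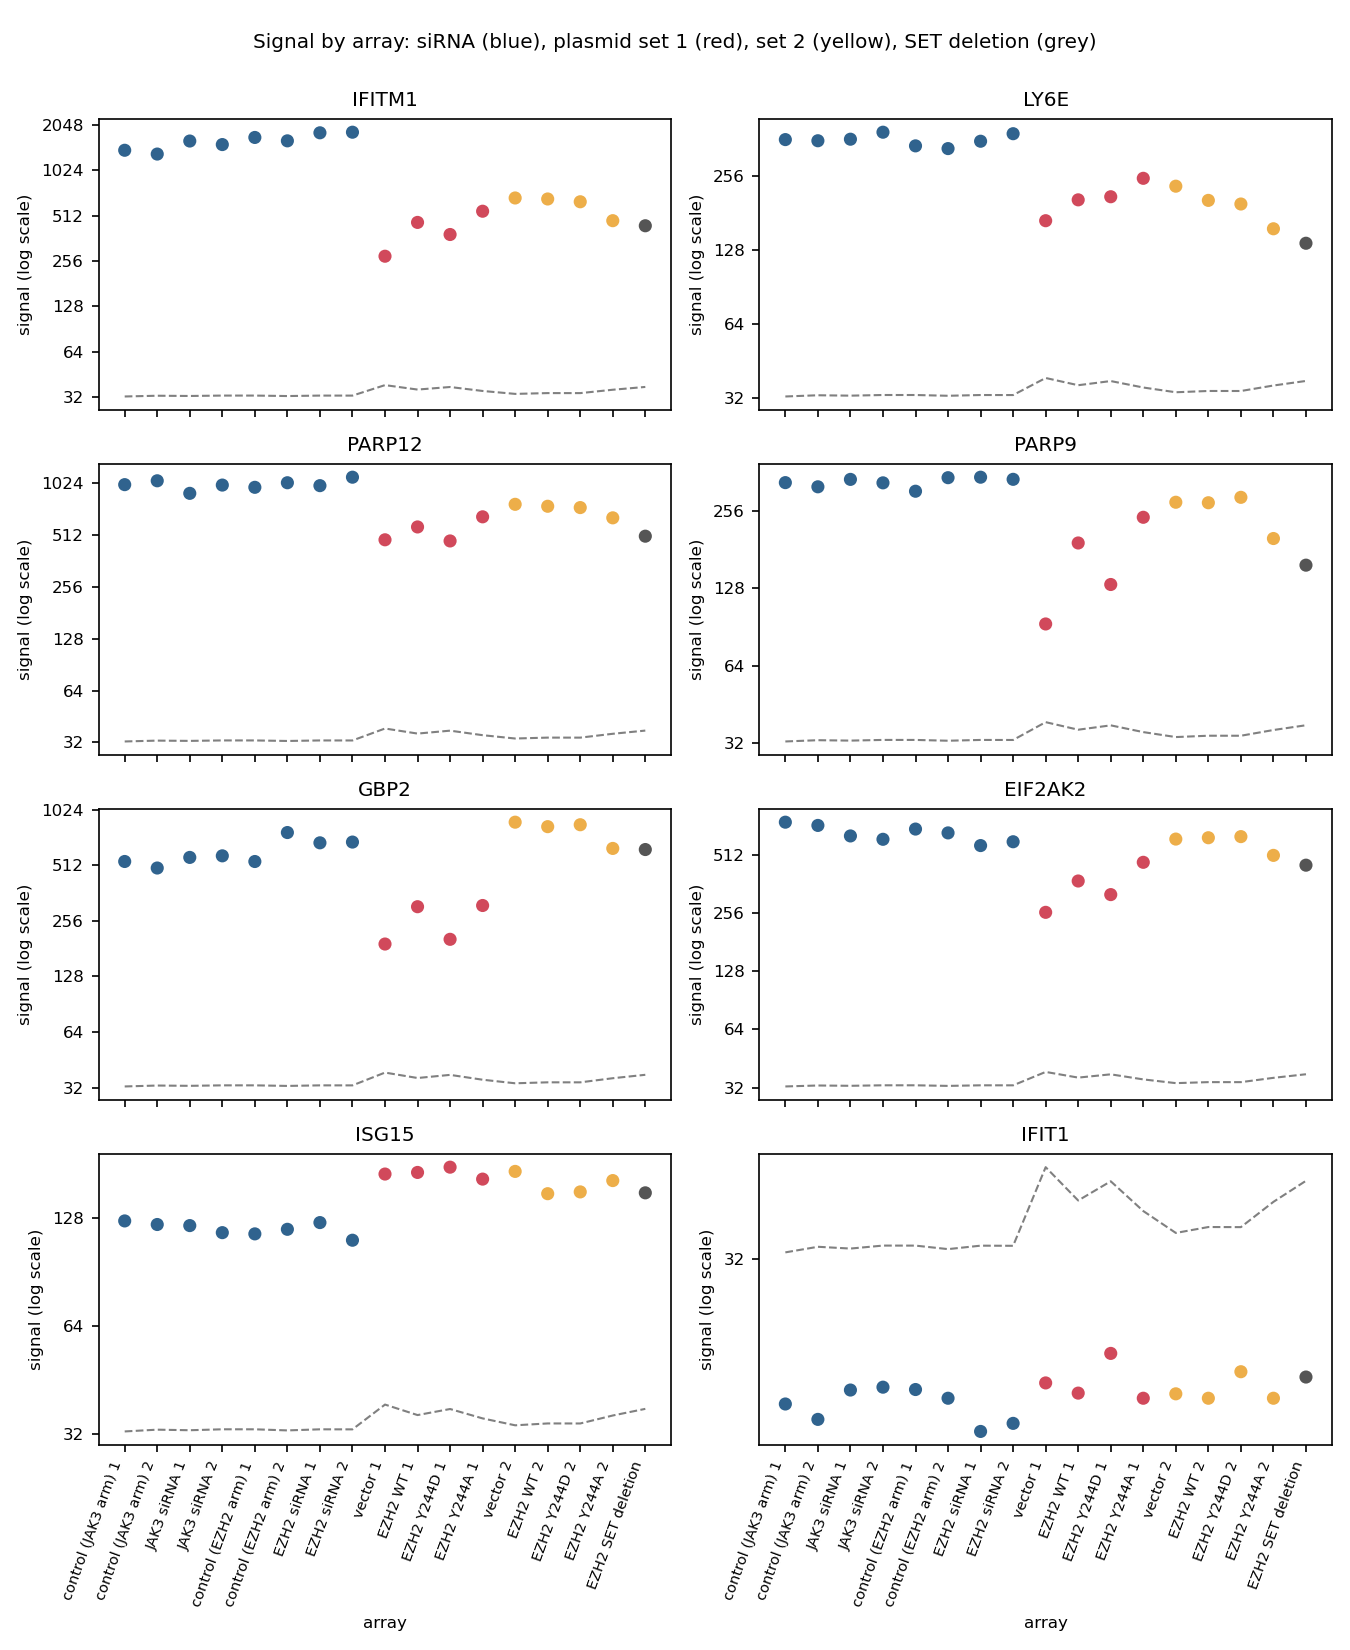
Signal (log axis, arbitrary units) of 8 interferon-stimulated genes on each array, with 1 point per array for siRNA (blue), plasmid set 1 (red), set 2 (yellow) and SET deletion (grey), and the lower quartile of all probe sets as a dashed line. IFITM1 and LY6E lie lower on all plasmid arrays than on the siRNA arrays, ISG15 lies higher, GBP2 splits by plasmid set, and IFIT1 stays below the dashed line.

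The vector arrays differed from the control siRNA arrays in 2 of 42 interferon-stimulated genes (4.76%), against 10.1% of all genes tested. Both called genes fell, as did 9.49% of all genes, and 0 rose (0.594% of all genes). The kind of nucleic acid, the array set and any difference in amount or batch cannot be told apart here. IFITM1 gave 275 and 669 with vector and 1385, 1307, 1683 and 1599 with control siRNA. The groups were far apart, and the vector arrays also differed from each other by more than the controls did. The difference was -1.79 ± 0.34 (SE), with adjusted p = 0.0239 in limma's test, and it was -2.43 for vector 1 and -1.15 for vector 2. LY6E gave 168 and 232 with vector and 360, 356, 339 and 331 with control siRNA, a difference of -0.81 ± 0.18 with adjusted p = 0.0397. Over all 9 plasmid arrays, SET deletion included, IFITM1 ran from 275 to 669, and on the 8 siRNA arrays from 1307 to 1823, without overlap.

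ISG15 gave 170 and 173 with vector against 126, 123, 116 and 119 with control siRNA, a difference of 0.51 with adjusted p = 0.073 in limma's test. All 9 plasmid arrays lay between 150 and 178 and all 8 siRNA arrays between 111 and 126. PARP12 gave 481 and 773 against 1005, 1058, 970 and 1031, a difference of -0.74 with adjusted p = 0.085. OASL gave 147 and 180 against 124, 118, 109 and 116, a difference of 0.48 with adjusted p = 0.110. Groups did not overlap in 12 genes that were higher and 9 that were lower, against 25.4% and 27.6% of all genes. The unadjusted test passed 13 of 42 genes, 31.0% against 29.9% of all genes.

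In the brightest and dimmest genes the direction followed the signal level, as it did over the whole array. In the brightest of 3 equal groups by signal the median was -0.50 for 14 interferon-stimulated genes and -0.58 for all genes, and in the dimmest group 0.21 for 12 of them and 0.25 for all. In the middle group 13 of 16 interferon-stimulated genes were above 0 with a median of 0.13, against 52.2% of all genes and a median of 0.03. IFITM1, the brightest of the interferon-stimulated genes, lay farthest below. The interquartile range was 1.79 and 2.18 on the vector arrays and 2.28 to 2.33 on the controls, and its part in the result was not tested. After quantile normalization IFITM1 kept -1.36 (adjusted p = 0.0341, limma), LY6E had -0.46 (adjusted p = 0.0596), and OASL (0.61), ISG15 (0.68) and SAMD9 (0.73) were called as higher, while 7.13% of all genes were called, 1.28% as higher and 5.85% as lower. With each array centred on its median, IFITM1 was -1.96 and LY6E -0.98, with adjusted p = 0.0515 and 0.0516, and the median of all genes moved from 0.03 to -0.15. Without vector 2, 35 of 42 were called (15 higher and 20 lower, background 86.7% with 40.8% and 45.8%), and without vector 1, 16 were called (12 higher and 4 lower, background 34.3% with 13.5% and 20.8%). In these fits the vector group is 1 array and the spread comes from the control siRNA arrays alone, so the lone vector array is assumed to vary like them. Leaving out control array 1 of the JAK3 arm or either control array of the EZH2 arm left 0 called, and leaving out control array 2 of the JAK3 arm left 1.

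**Figure D5:**
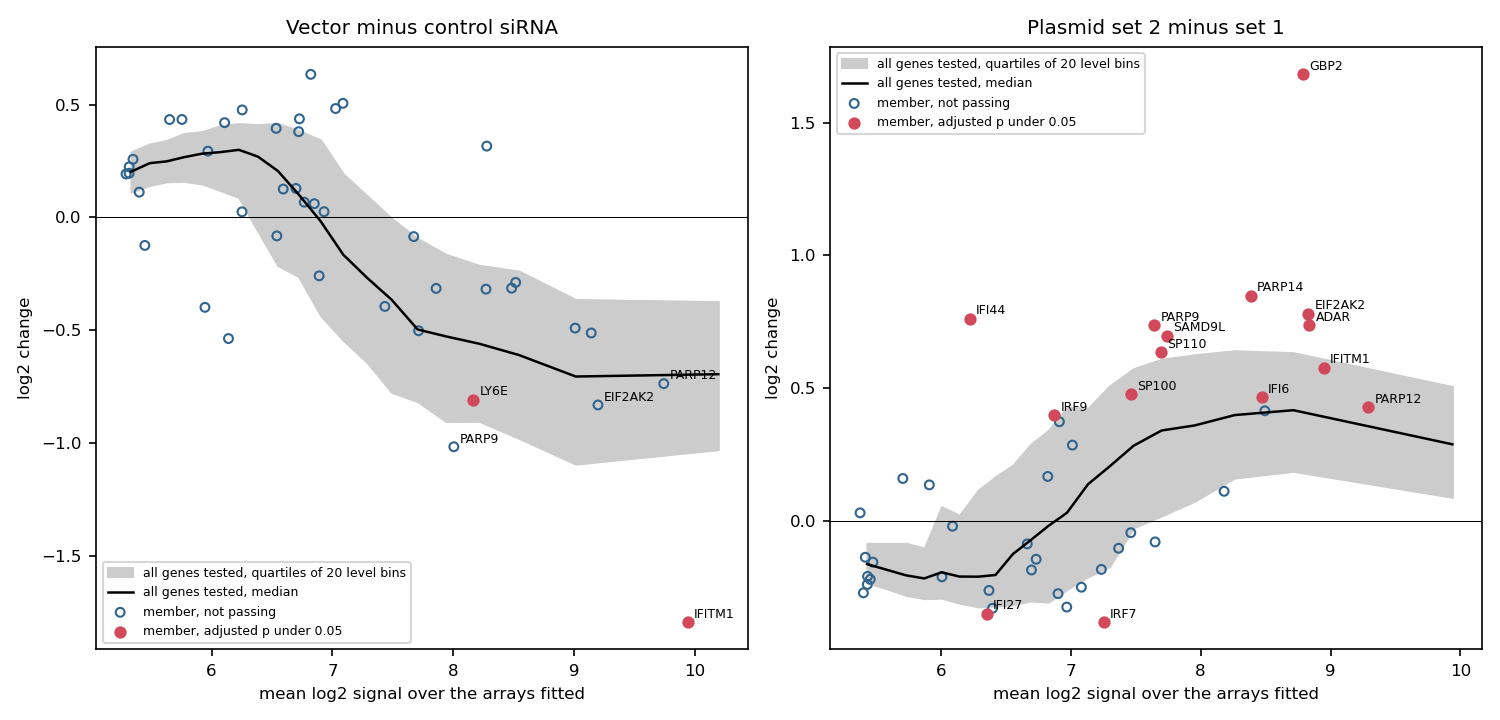
Log2 difference against mean log2 signal over the fitted arrays, for vector minus control siRNA (left, 42 interferon-stimulated genes) and plasmid set 2 minus set 1 (right, 43 genes); filled points passed the adjusted test, and the black line and grey band give the median and quartiles of all genes tested in 20 bins of signal. IFITM1 (-1.79) lies far below the band on the left and GBP2 (1.68) far above it on the right.

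Among the other pathway genes 4 of 37 fell and 0 rose between vector and control siRNA, against 9.49% and 0.594% of all genes. The dNTP hydrolase SAMHD1, which starves viruses of nucleotides, gave 224 and 408 with vector against 860, 819, 771 and 730, a change of -1.39 (adjusted p = 0.0213, limma). IFNG fell by 1.15, with 48.8 and 62.7 against 222, 218, 63.1 and 73.4, so vector 2 lay next to the controls of the EZH2 arm and far below those of the JAK3 arm. The phosphatase PTPN2 fell by 1.03. TLR7 fell by 0.80, with 41.6 and 33.5 against 91.5, 109, 46.4 and 38.7, so here too the controls of the JAK3 arm were the high ones.

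The array with EZH2 lacking the SET domain has no replicate and was set against the range of the 8 other plasmid arrays, with no test. Of 47 interferon-stimulated genes, 40 lay within that range, 1 lay above it (2.13%, against 6.06% of all genes) and 6 below it (12.8%, against 9.41%). The gene above was IFI44L, at 27.5 against 23.9 to 25.7, which is below the lower quartile of every array. Those farthest below were LY6E, at 136 against 156 to 250, and the ISG15 protease USP18, at 65.3 against 73.7 to 111. IFI35 was at 120 against 132 to 184, IFIT2 at 30.6 against 32.8 to 38.8 and IFIH1 at 88.1 against 91.9 to 154. IFITM1 was at 438, within the range.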

How the data were processed

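RNA was labelled with biotin from 100 ng and hybridised to 17 arrays, per the labels' protocols. The deposited table holds signal intensity for 28869 probe sets, in which the authors' background correction, normalization and summary of probes are not given in the sources used here. Of these, 19310 have 1 gene symbol in the platform annotation, 1752 several and 7807 none, which gave 18377 genes, of which 685 had more than 1 probe set. Gene symbols matched RefSeq GRCh38.p14 without change (0 symbols replaced).

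The members, role groups and pathway list were chosen with earlier results of these data known. Named were the called genes of each comparison (up to 12 each way), or the 5 with the smallest p where fewer than 5 were called, and up to 5 called pathway genes.

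Dim genes, with a mean over the fitted arrays below the 30th percentile of probe sets, were not tested, JAK3 and EZH2 excepted. Tests were two-sided and run in R 4.3.3 with limma 3.58.1 (lmFit, eBayes, log2 values), with Benjamini-Hochberg adjustment over all genes tested and a threshold of 0.05. Residual degrees of freedom were 3 for the siRNA fit of 8 arrays (EZH2 pairs as a block), 6 for plasmids against vector, 5 between sets and 3 for vector against control siRNA. The fits were also tested on simulated data. The number of arrays limits the precision. Alternatives were quantile normalization, median centring, no filter or a 50th percentile filter, the mean of probe sets, trend and robust eBayes, array weights, blocks, other sets of arrays, and leaving out each array.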

Additional observations from a re-analysis of the deposited data

Results flagged for a closer look

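Among the 43 genes tested on plasmid arrays, the 6 full-length EZH2 arrays of each gene were examined for an array far from the others. IFIT5, an RNA-binding member of the IFIT family, was at 37.1 on the Y244D array of set 1, with the nearest of the other 5 arrays at 41.9. The gap was 0.715 of the whole range, above the critical value of 0.625. Chance gives such a gap in about 1 of 20 groups, and this was 1 of 43.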

How the results depend on the processing

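Of 717 values of single genes under alternatives, 591 kept their direction and their side of the threshold, 90 lost the call, 32 gained one and 4 turned sign. Only called genes can lose a call, so the share of calls lost is larger than these totals show. Between the sets IFI6 kept its call in 5 alternatives and lost it in 10, while GBP2, ADAR, PARP14 and EIF2AK2 lost it in 0. For vector against control siRNA, LY6E kept its call in 7 and lost it in 9, and IFITM1 kept it in 11 and lost it in 5. The 4 values that turned sign were all without vector array 1 in the comparison of full-length plasmids with vector: IRF9 -0.14, ZBP1 0.12, HERC5 -0.052 and PARP9 -0.37. Leaving out vector array 2 gave the other end of the range for each, at 0.67, -0.58, 0.40 and 1.21. The number of interferon-stimulated genes called under JAK3 siRNA was 3 with array weights and 2 with only the 4 arrays of the arm, and 0 to 2 on leaving out 1 array. It was 0 to 2 for EZH2 siRNA and 0 to 1 for the difference of the siRNA effects on leaving out 1 array. Between the control arms it was 3 with array weights, 1 with only the 4 controls and 0 to 1 on leaving out 1 array. Between the plasmid sets the 15 calls became 27 of 43 with array weights (66.1% of all genes were called) and 4 to 24 on leaving out 1 array (11.7% to 57.9% of all genes). For vector against control siRNA the 2 calls became 4 after quantile normalization, 0 after median centring, 1 without a filter (ISG15, higher, with IFITM1 and LY6E no longer called), 1 with trend and robust eBayes, 1 with array weights, 4 with the 4 controls as 1 group, 27 with 8 plasmid arrays against 8 siRNA arrays (16 higher and 11 lower, with 10823 of all genes called), and 0 to 35 on leaving out 1 array. Counts over all genes under the same alternatives are given next. The counts of interferon-stimulated genes cannot be read without them. The cause of the changes in count was not tested.

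Counts over all genes also moved. Under the alternatives, and on leaving out 1 array, they ran from 94 to 699 and 33 to 519 for JAK3 siRNA (200 in the main test), from 0 to 230 and 0 to 1511 for EZH2 siRNA (136) and from 15 to 67 and 14 to 323 for the difference (53). They ran from 3806 to 9530 and 1680 to 8353 between the sets (4966), from 814 to 10823 and 201 to 12541 for vector against control siRNA (1459), and from 0 to 867 and 0 to 214 between the control arms (0). Full-length plasmids gave 0 throughout. Median centring turned the split of all calls between the sets to 3024 higher and 782 lower, from 3140 and 1826.

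With the shared numbers as a replicate block the count of interferon-stimulated genes was 0 for JAK3 siRNA, 0 for full-length plasmids and 2 for vector against control siRNA, and without the EZH2 pairs as a block it was 0 for EZH2 siRNA. Same-numbered arrays deviated from their group means together with r = 0.841 for vector and full-length plasmids, 0.153 in the JAK3 arm, -0.0851 in the EZH2 arm and 0.0288 for vector and control siRNA, across genes. IFIT1, IFI44L and HERC6 had signals below the lower quartile of every array, so that changes in them could not be read at this signal.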
